A study of Caenorhabditis elegans with 8 samples.

Results

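The subject is the numbered col genes of Caenorhabditis elegans, the largest group of cuticle collagen genes in the worm. Members were all genes whose symbol is col followed by a number, found by matching the sequence names in the deposited tables to the WBcel235 annotation. The annotation lists 159 such genes, and 158 of them have a row among the 46244 gene identifiers of the tables. The gene without a row, col-127, is not analysed here. Of the 158 members, 155 are annotated as protein coding and 3, col-66, col-136 and col-182, as pseudogenes.

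The series compared whole worms exposed for 24 hours to DEET, an insect repellent, dissolved in DMSO with worms exposed to the solvent DMSO alone, with 4 samples of each. Both groups share one strain: all 8 samples are worms labelled col-121, a strain named for one of the col genes, and no sample without that genotype was analysed. The sources used here name no allele. Per the labels, exposure began in late L4 larvae, each sample held 1000 worms, the vehicle was 0.1% DMSO and DEET was at 0.1 M in DMSO. It is unclear from the labels if 0.1 M describes the stock or what the worms met. Each sample also carries a pair number from 1 to 4, which the labels mark as a batch and which joins 1 DEET and 1 DMSO sample.

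The nematode cuticle is an extracellular matrix that the epidermis secretes and that is shed and rebuilt at every moult. Its main building blocks are small collagens with repeats of glycine followed by a pair of variable residues, secreted as trimers, cross-linked, and assembled into layers, furrows and ridges. The col genes are transcribed in waves tied to the moults, and a subset, of which col-19 is the usual reporter, is switched on for the adult cuticle. Mutants of col-121 are used in toxicology because their cuticle lets compounds pass more readily.

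Library totals ran from 44437681 to 50295321 counts. Ribosomal RNA made up 12.1% of the counts in the batch 4 DEET library and 10.9% in the batch 4 DMSO library, against 3.91% to 8.32% in the other 6. Markers of the intestine, muscle, epidermis and oocyte were present in every library, and the 8 early embryo genes together reached 0.7125 to 1.976 TPM. In their deviations from the mean of their treatment, all 8 libraries correlated best with the other library of their batch, and batch 4 stood apart from the rest.

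Summed over the col genes, the level was 18404, 14674, 15478 and 19058 TPM in the DEET libraries of batches 1, 2, 3 and 4, against 18205, 16190, 14184 and 19156 TPM in the DMSO libraries of the same batches. TPM is a transcript abundance scaled by transcript length and to a fixed total per library, so levels of different genes can be set beside each other. The sums of the DEET and DMSO groups overlapped, and batches 1 and 4 had the higher sums in both. The number of members above 1 TPM was 107 in the DEET and 106 in the DMSO library of batch 4, against 80 to 93 in the other libraries.

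A few members carried most of this level. Of the 158 members, 26 averaged over 100 TPM, 35 averaged 10 to 100 TPM, 39 averaged 1 to 10 TPM and 58 averaged less than 1 TPM. The 10 members with the highest mean held 63.1% of the summed mean level, and the first alone held 10.7%. Counts of 1 member, col-55, were 0 in every library.

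The gene at the top was col-119 (chromosome IV, 8978926 to 8979795, minus strand). It had 1900, 1840, 1860 and 1640 TPM in the DEET libraries and 1920, 1930, 1730 and 1650 TPM in the DMSO libraries, in the order of batches 1 to 4. The next, col-140 (chromosome V, 5835855 to 5836834), had 1800, 1450, 1580 and 1580 TPM with DEET and 1730, 1540, 1450 and 1600 TPM with DMSO. The ranges of these genes overlapped, although col-119 was the higher in each of the 8 libraries. Below them col-178, col-20, col-122 and col-124 averaged 1110, 1080, 1060 and 1030 TPM, and their order was within the spread between libraries. A gap separated this group from col-140, whose lowest library, at 1450 TPM, lay above the highest library of the group, at 1230 TPM for col-124. The members col-181, col-160, col-93 and col-80 followed with means of 902, 740, 705 and 643 TPM.

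The adult cuticle reporter gene col-19 (chromosome X, 421707 to 422691) ranked 11 by level. It averaged 629 ± 91.9 TPM in DEET worms and 633 ± 84.2 TPM in DMSO worms (SD, n = 4 each). All 8 libraries had between 517 and 720 TPM of it. Its annotated span overlaps ZK1193.2 on the opposite strand, and no source used here says whether the counting used strand.

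**Figure D1:**
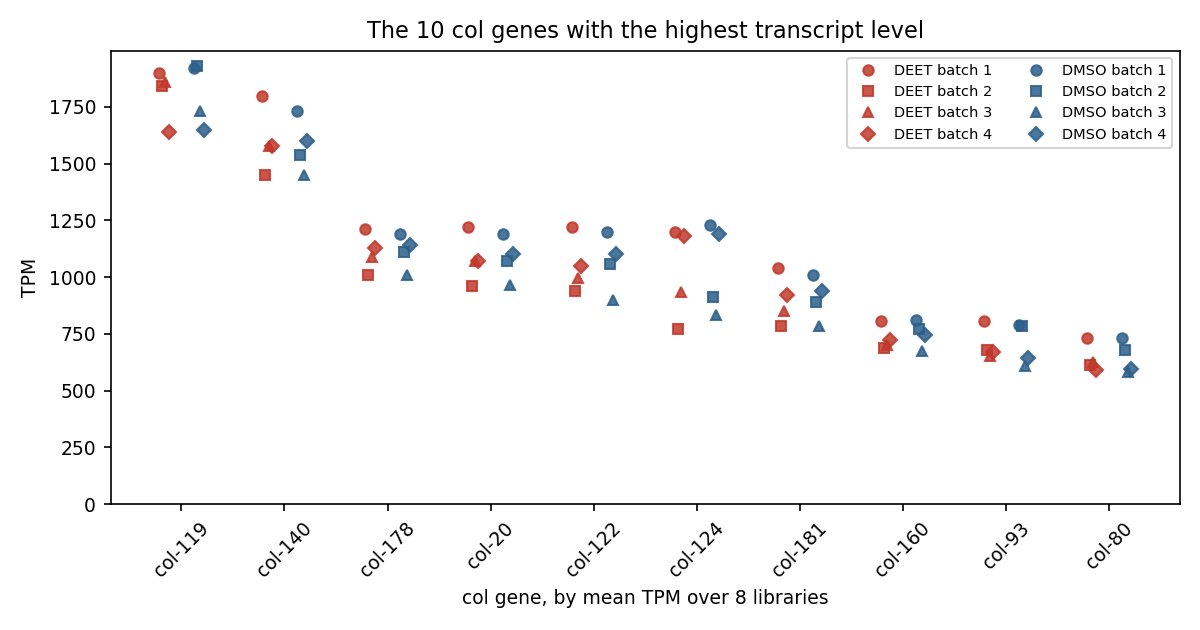
Level in TPM (vertical axis, from 0) of the 10 col genes with the highest mean, one point per library, with DEET in red and DMSO in blue and the batch given by the shape. The DEET and DMSO points of each gene overlap, and col-119 and col-140 lie above the other 8.

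The strain's namesake was transcribed at a low level. The gene col-121 (chromosome IV, 9394873 to 9396218, minus strand) had 37, 63, 32 and 52 counts in the DEET libraries of batches 1 to 4, against 21, 38, 69 and 49 counts in the DMSO libraries. This came to 0.753 ± 0.221 TPM with DEET and 0.726 ± 0.337 TPM with DMSO (SD, n = 4 each). The groups overlapped and the direction differed between batches, with log2 ratios of 0.86, 0.59, -1.04 and 0.06 in batches 1 to 4. The blocked log2 fold change was 0.07, and its sign turned when batch 1 (-0.11) or batch 2 (-0.13) was left out. The gene overlaps daf-15 on the opposite strand, so its counts may include reads of that neighbour if strand was not used. With no library of another strain, these values check no label.

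Exposure to DEET changed no col gene past the threshold. Of the 158 members, 37 had too few counts to be tested, and with the batch number as a block 0 of the rest were called higher and 0 lower, against 0.0839% of all 15496 tested genes called higher and 0.0% called lower (edgeR quasi-likelihood test, adjusted p under 0.05). The smallest adjusted p of a member was 0.0803. At an unadjusted p under 0.05 there were 11 members, or 9.09% of those tested, against 3.39% of all genes. DESeq2 with the same block also called 0 members, with 5 at an unadjusted p under 0.05, and edgeR without the block called 0, with 0 at an unadjusted p under 0.05. The p-values of the blocked fits measure how the difference between DEET and DMSO varied from batch to batch. Those of the fit without the block measure the spread between samples of a treatment. The labels describe the samples as independent biological repeats.

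The col genes moved little with DEET in either direction. The median log2 fold change, DEET over DMSO, was -0.01 over the tested members and 0.0 over all tested genes, and 55 members lay above 0. The fitted values of the members ran from -0.56 to 0.36, with quartiles of -0.12 and 0.08, against quartiles of -0.05 and 0.05 over all genes. Of the 101 tested members with a mean of at least 50 counts, 101 had a fitted change within 1.5-fold, and the largest was 1.47-fold, for col-41. Without batch 3 the changes of col-41 and col-131 were beyond 1.5-fold, and the larger was 1.66-fold. That of col-41 was 1.59-fold without the replicate block and also passed 1.5-fold without batch 2, as did that of col-170 without batch 4. A member was higher in DEET in 4 of 4 batches for 5 genes and lower in 4 of 4 for another 5, which is 4.13% of those tested in each direction, against 4.58% and 5.73% of all genes. In 0 members did the 4 DEET libraries lie all above or all below the 4 DMSO libraries, a pattern found in 0.29% and 0.155% of all tested genes.

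The 10 members with the highest level were closely matched between the treatments, with fitted log2 fold changes from -0.04 to 0.02. For col-119 the level was 1810 ± 114 TPM with DEET and 1810 ± 139 TPM with DMSO (SD, n = 4 each). The median ratio over all tested members was -0.01, -0.12, 0.13 and -0.01 on the log2 scale in batches 1 to 4, so its sign differed between batches.

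The member nearest to the threshold was col-17 (chromosome II, 4866436 to 4867576, minus strand). It had 4.26, 1.92, 1.31 and 21.8 TPM in the DEET libraries of batches 1 to 4, against 5.70, 2.43, 1.80 and 30.7 TPM in the DMSO libraries. In each batch the DEET library was the lower, while the groups as a whole overlapped because the batches differed by far more than the treatments. The log2 ratios within batches were -0.40, -0.33, -0.46 and -0.49, and the blocked log2 fold change of -0.44 had an unadjusted p of 7.3e-05 and an adjusted p of 0.0803. With no filter on low counts it was -0.42 and passed, with an adjusted p of 0.00882. Over all alternatives the value stayed between -0.46 and -0.33, with adjusted p from 0.00882 to 1.0.

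None of the other members named for their small p passed the threshold. The lowest p of a higher value belonged to col-91, which had 8.73, 2.28, 2.39 and 41.9 TPM with DEET and 7.44, 2.16, 1.67 and 32.4 TPM with DMSO in batches 1 to 4. It was higher with DEET in 4 of 4 batches, with a log2 fold change of 0.31 and an adjusted p of 0.573 (edgeR, batch as block), which was 0.0895 with no filter on low counts. The log2 fold changes of col-12, col-117, col-111 and col-135 were 0.26, 0.29, 0.21 and 0.12, and those of col-38, col-79, col-41 and col-175 were -0.14, -0.31, -0.56 and -0.17, each with an adjusted p of 1.0. The col-12 gene has a near copy in its neighbour col-13, whose log2 fold change was 0.17, and how reads were shared between them is uncertain.

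**Figure D2:**
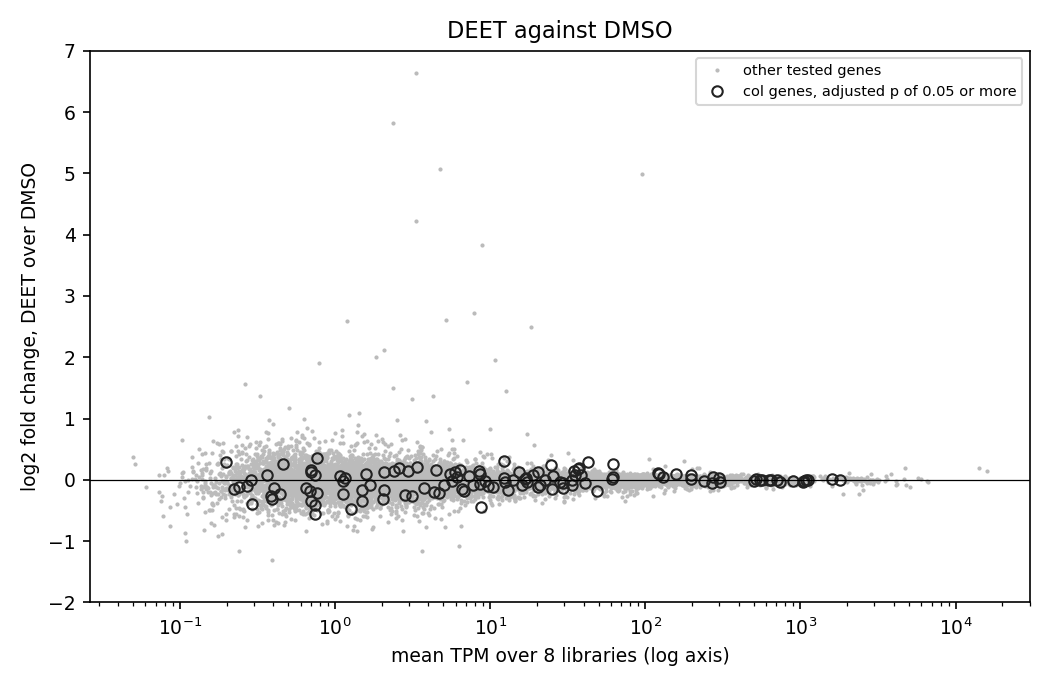
Fitted log2 fold change, DEET over DMSO with the batch as block (vertical axis), against mean TPM over 8 libraries (log axis). The tested col genes (open circles) lie between -0.56 and 0.36, and other tested genes are grey points.

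The batches differed far more than the treatments did. The 4 batch means of a member spanned a median of 2.63 on the log2 scale, against 0.53 over all tested genes, while the absolute log2 ratio of DEET to DMSO within a batch had a median of 0.18 for members and 0.10 for all genes. The median deviation of the members from their mean over batches was 1.44 in batch 4 and 0.18, -0.85 and -0.86 in batches 1, 2 and 3. Over all tested genes these deviations were 0.06 in batch 4 and 0.02, -0.01 and 0.00 in batches 1, 2 and 3. Batch 4 had the highest mean TPM for 85 members, or 70.2% of those tested, against 45.2% of all genes. Batch 1 had the highest for 27 members. The order of batch 4 first and batch 1 second was found in 78 members, or 64.5% of those tested, against 26.3% of all genes.

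**Figure D3:**
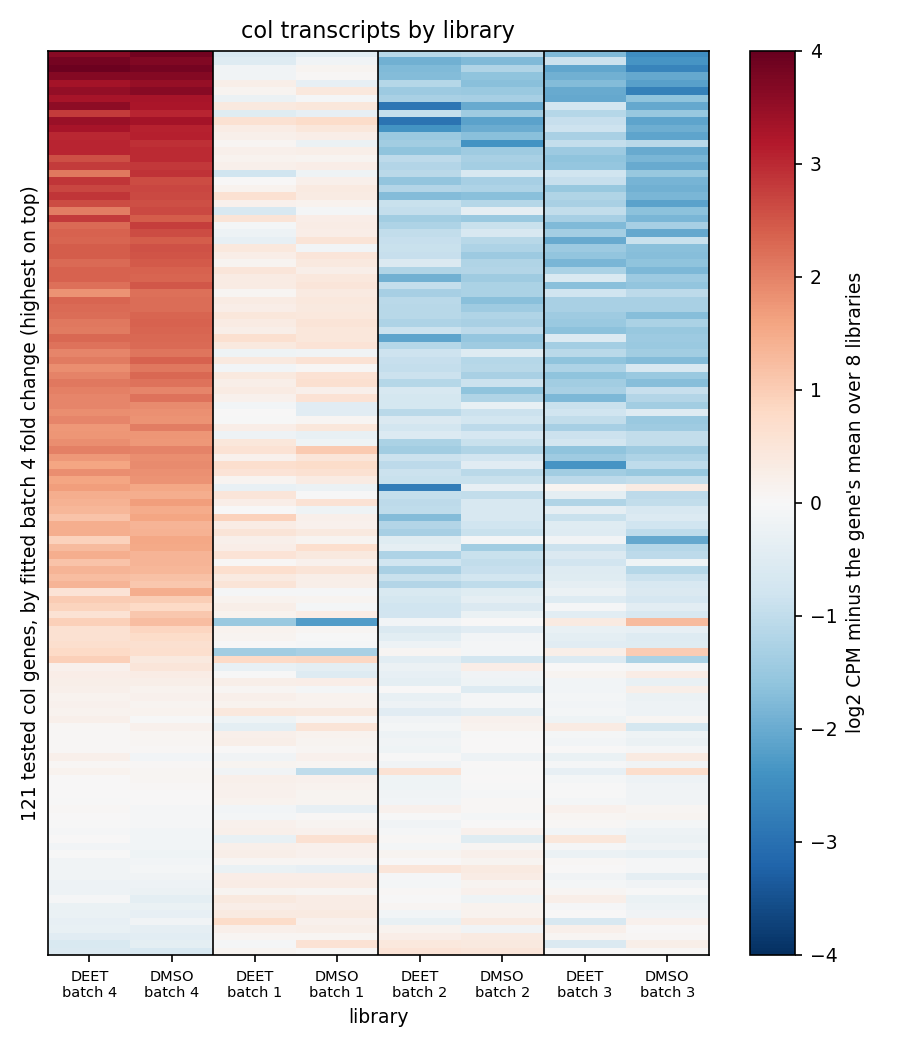
Each row is a tested col gene and each column a library, with the 2 libraries of batch 4 at the left and DEET left of DMSO in each batch. Colour gives log2 CPM minus the mean of the gene over 8 libraries, cut at 4 either way. Most rows are above their mean (red) in both libraries of batch 4 and below it (blue) in batches 2 and 3.

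Batch 4 worms carried more transcript of many col genes that averaged under 100 TPM in batches 1 to 3, up to 30.2-fold. The 10 col genes with the highest levels had folds of 0.881 to 1.21, and none of these passed the threshold. Counts of the 2 libraries of each batch were summed, and the sum of batch 4 was tested against the 3 other sums with edgeR. In this fit 37 members were called higher and 3 lower, which is 30.6% and 2.48% of those tested, against 10.1% and 19.1% of all tested genes. The fit has 2 residual degrees of freedom and assumes that the lone batch 4 varies like the others. Batch 4 was singled out with earlier results of these data known, so its distance from the rest is a description. The counts depended on the batches kept. Without batch 1, 83 members (68.6%) were higher and 4 (3.31%) lower, against 19.7% and 20.3% of all genes. Without batch 2, 17 (14%) were higher and 4 (3.31%) lower, against 13% and 20%, so the share called higher was then close to that of all genes. Without batch 3, 14 (11.6%) were higher and 1 (0.826%) lower, against 1.92% and 9.87%. A fit to the 8 libraries with the replicate block, whose error is the spread within batches, called 86 (71.1%) higher and 10 (8.26%) lower, against 36.4% and 29.8% of all genes. A fit to libraries with treatment and a batch 4 term called 78 (64.5%) and 6 (4.96%), against 27.9% and 26.0%. DESeq2 on the batch sums called 61 (50.4%) and 7 (5.79%), against 12.8% and 22.6%, and limma on log2(TPM + 1) called 35 (28.9%) and 0 (0.0%), against 8.27% and 12.7%. On log2(TPM + 0.1) limma called 0.0% of members and of all genes in both directions, with 70 members at an unadjusted p under 0.05.

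The median log2 fold change, batch 4 over batches 1 to 3, was 1.88 over the members, or 3.68-fold, and 0.06 over all tested genes. Quartiles were 0.08 and 2.84 for the members, against -0.29 and 0.54 for all genes. Over 2-fold higher in batch 4 were 77 members, or 63.6% of those tested, against 11.5% of all genes. Over 10-fold higher were 18 members, or 14.9%, against 0.239% of all genes, and 0 members were over 2-fold lower. Of the 59 members over 4-fold higher, 31 were not called, among them col-168 at 20.1-fold, col-146 at 16.4-fold and col-7 at 14.5-fold.

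Both treatments showed the batch difference. Both libraries of batch 4 lay above the other 6 for 79 members, or 65.3%, and below them for 8, or 6.61%. The shares over all tested genes were 34.4% above and 29.6% below. All 40 called members were among these 79 and 8. With the DEET libraries alone 30 members (24.8%) were called higher and 3 (2.48%) lower, against 4.96% and 13.2% of all genes. With the DMSO libraries alone 31 (25.6%) and 3 (2.48%) were called, against 12.1% and 20.8%.

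**Figure D4:**
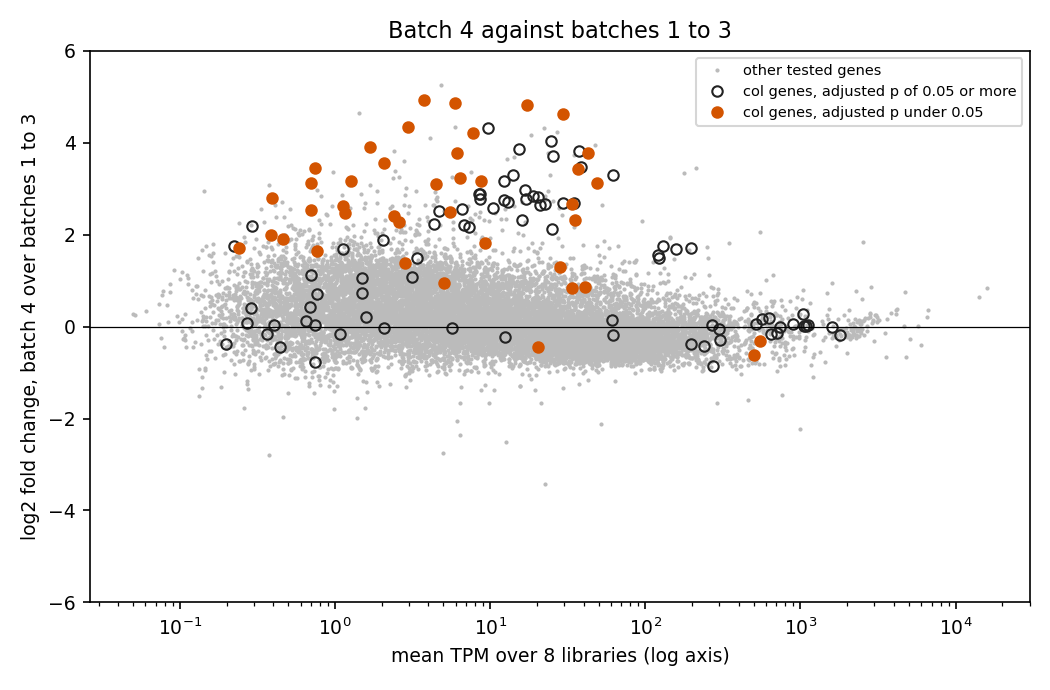
Fitted log2 fold change, batch 4 over batches 1 to 3 (vertical axis), against mean TPM over 8 libraries (log axis), with called col genes filled, other tested col genes as open circles and other tested genes in grey. The 20 col genes with the highest level lie between -0.86 and 0.27, while most of those between 1 and 100 TPM lie above 0.

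The fold changes were also set beside the level of the gene. With the level taken as the mean of batches 1 to 3, classes chosen after the data were seen, 31 tested members were under 1 TPM, 47 at 1 to 10 TPM, 20 at 10 to 100 TPM and 23 above 100 TPM. Their median log2 fold changes were 1.76, 2.67, 1.93 and -0.01, from the lowest class to the highest, against 0.47, 0.35, -0.16 and -0.18 for all tested genes of the same classes. Called higher were 16, 13, 8 and 0 of them, and called lower were 0, 0, 1 and 2. Over all tested genes of any level 10.1% were called higher and 19.1% lower. The shares of all genes called were not computed by class, so these counts show no trend with level particular to the members. This level is part of the fold itself, so a member that is low in batches 1 to 3 tends to a higher fold. With the level taken over all 8 libraries, where a high value in batch 4 lifts a member into a higher class, the medians of the 4 classes were 0.91, 2.49, 2.76 and 0.01. Both ways of forming classes gave a median near 0 above 100 TPM. Differences between classes were not tested.

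The 10 members with the highest level summed to 10560 and 10700 TPM in the DEET and DMSO libraries of batch 4, against 9534 to 11910 TPM in the other 6 libraries, a ratio of means of 0.995. The other 148 members summed to 8502 and 8453 TPM in the DEET and DMSO libraries of batch 4, against 4650 to 6490 TPM in the other 6, a ratio of 1.54. The fitted folds of the 20 members with the highest level ran from 0.552 to 1.21. The 5 members with a mean above 100 TPM over all 8 libraries that exceeded 2-fold, col-139, col-129, col-92, col-159 and col-81, had folds of 3.26, 3.20, 3.36, 2.82 and 2.93, and none of them was called. In whole worms, fewer cells of a type and less RNA per cell cannot be told apart, and the same holds for more of either.

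The called members with the highest folds had low levels in batches 1 to 3. The gene col-169 (chromosome X, 6329160 to 6330062) had 12.6 and 14.7 TPM in the DEET and DMSO libraries of batch 4, against a lowest of 0.151, a median of 0.449 and a highest of 0.742 TPM in the other 6. Its log2 fold change was 4.92, with an adjusted p of 0.00457 (edgeR on batch sums). The gene col-126 (chromosome IV, 11263401 to 11264397) had 22.4 and 20.8 TPM in batch 4, against 0.264, 0.636 and 1.40 TPM as the lowest, median and highest of the other 6, a 29.1-fold difference with an adjusted p of 0.00657. For both genes the batch 4 libraries lay far above all others, whichever the treatment.

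The gene col-169 belongs to a row of members on chromosome X, col-167 to col-171, which lie within 10 kb of each other. Its neighbour col-167 (6323488 to 6324393) reached 105 and 106 TPM in the DEET and DMSO libraries of batch 4, against a lowest of 1.96, a median of 2.59 and a highest of 8.69 TPM in the other 6, and was 24.7-fold higher with an adjusted p of 0.0329. The gene col-170 was 20.4-fold higher (adjusted p = 0.0159 in edgeR), col-168 had a fold of 20.1 that was not called (adjusted p = 0.0565 in edgeR), and col-171 had too few counts to be tested. How the counting shared reads among these copies is uncertain.

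A second row lies on chromosome V, where col-144, col-145 and col-10 follow each other on the minus strand between 9159586 and 9165307. The middle gene, col-145, had 64.5 and 60.5 TPM in the DEET and DMSO libraries of batch 4, against 0.637, 1.52 and 4.62 TPM as the lowest, median and highest of the other 6, a 28.4-fold difference (adjusted p = 0.0355 in edgeR). Its neighbours were higher by less: col-10 was 6.32-fold higher (adjusted p = 0.0198) and col-144 was higher by 2.32 on the log2 scale (adjusted p = 0.00599). In the worm col-10 is known as a target of BMP signalling, and over-expression of col-10, col-13 or col-120 is known to lengthen life. The gene col-13 was 10.7-fold higher (adjusted p = 0.0433), while col-120 had a fold of 5.70 that was not called (adjusted p = 0.0667).

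The remaining members named for their size were col-180, col-90, col-154, col-117 and col-156. They were higher in batch 4 by 18.6-fold, 15.1-fold, 13.7-fold, 13.7-fold and 11.8-fold, with adjusted p of 0.0159, 0.00332, 0.0419, 0.0303 and 0.0228 in edgeR. Of these col-117, at 146 and 136 TPM in the DEET and DMSO libraries of batch 4 against 3.40 to 18.7 TPM in the other 6, had the highest level. Its neighbour col-3, which lies on the opposite strand within 10 kb, was 8.71-fold higher (adjusted p = 0.0467). Another target of BMP signalling, col-41, was 10.9-fold higher (adjusted p = 0.00317 in edgeR), at 1.70 and 2.96 TPM in batch 4 against 0.115 to 0.333 TPM in the other 6. Targets of BMP signalling were not examined as a set, so col-10 and col-41 do not stand for the others. The genes col-90, col-156 and col-41 overlap let-754, mig-17 and ucr-2.2 on the opposite strand, so their reads may include those of the partner. Of the 10 named members with the highest folds, col-117, col-145, col-154 and col-167 lost the call when batch 2 or batch 3 was left out, and col-156, col-169, col-170 and col-180 when batch 2 was. None of the 10 passed with limma on log2(TPM + 0.1), where col-126 and col-90 had an adjusted p of 0.0634.

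Called members were 1.79-fold to 30.2-fold higher, with a median of 6.98-fold. The lowest of them were col-155 and col-166, at 1.79-fold and 1.81-fold. The pseudogene col-182 was called as well, at 8.68-fold (adjusted p = 0.0183 in edgeR) and a mean of 0.705 TPM.

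The 3 members that were lower in batch 4 were col-143, col-135 and col-8. The gene col-143 (chromosome V, 6835635 to 6836704) had 358 and 366 TPM in the DEET and DMSO libraries of batch 4, against a lowest of 509, a median of 527 and a highest of 632 TPM in the other 6. Its log2 fold change was -0.62, with an adjusted p of 0.0197 (edgeR on batch sums). The values of col-135 were 16.3 and 15.5 TPM against 18.3 to 23.7 TPM (log2 fold change -0.45), and those of col-8 were 471 and 461 TPM against 544 to 613 TPM (log2 fold change -0.32). In all 3 genes the ranges of batch 4 and the other batches did not overlap. None of the 3 passed with limma on log2(TPM + 1), and col-135 and col-8 lost the call without batch 3. The largest difference downward was that of col-101, at 173 and 165 TPM in batch 4 against 267 to 382 TPM, which was not called (log2 fold change -0.86, adjusted p = 0.0576 in edgeR).

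The adult reporter col-19 was not called in this comparison. It had 686 and 703 TPM in the DEET and DMSO libraries of batch 4, against a lowest of 517, a median of 600 and a highest of 720 TPM in the other 6 (log2 fold change 0.18, adjusted p = 0.422 in edgeR). Nor was col-121, whose log2 fold change was 0.03 and turned to -0.22 without batch 1. The transmembrane collagen gene col-99, which is not a cuticle component, had a log2 fold change of -0.16.

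Neighbouring members did not always go together. On chromosome II col-17, at 21.8 and 30.7 TPM in the DEET and DMSO libraries of batch 4 against 1.31 to 5.70 TPM in the other 6, was 8.97-fold higher (adjusted p = 0.0376 in edgeR). The next member on the same strand, col-20 (4869670 to 4870791), had 1070 and 1100 TPM in batch 4 against 960 to 1220 TPM, with a fold of 1.00. Further along the chromosome col-80, with a fold of 0.895, lies beside col-39, with a log2 fold change of 3.81 that was not called (adjusted p = 0.0679).

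Higher members were found on every chromosome. The median log2 fold change of the tested members was 2.36 on chromosome I, 1.12 on II, 0.84 on III, 1.82 on IV, 2.28 on V and 1.80 on X. The 41 tested members with another member within 10 kb had a median of 2.32 with 16 called higher. The 80 without one had a median of 1.70 with 21 called higher. The share called higher was 30.6% of all tested members and 10.1% of all tested genes. The 45 tested members that overlap another coding gene had a median of 0.74, and the 76 that overlap none had a median of 2.30. The difference between these classes was not tested.

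The 37 members with too few counts for the test are not part of these shares. Of these 37, 36 had at least 1 count and 20 had their highest mean TPM in batch 4. The share over all tested genes, which have more counts, was 45.2%. That over all untested genes is not given here, so the count shows nothing particular to these members. The highest level among the untested members was that of col-137, at 7.60 TPM in batch 4 against 0.228, 0.159 and 0.0354 TPM in batches 1, 2 and 3.

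The effect of DEET was also compared between batch 4 and batches 1 to 3. In a fit with a term for that difference, 0 members were called in either direction by edgeR. The background was 0.0% of all genes called higher and 0.00645% called lower. The smallest adjusted p of a member was 0.102. In edgeR 3 members had an unadjusted p under 0.05, against 2141 of all 15496 tested genes. DESeq2 called 0 members, against 4.01% of all genes called higher and 0.136% called lower. At an unadjusted p under 0.05 DESeq2 had 0 members, against 1223 of all genes. The test sets 1 batch against 3.

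Among cuticle collagens with other names, 19 of 20 had a fold above 1 in batch 4, against 8333 of all 15496 tested genes. These genes are known from body shape mutants, such as dpy-13 and dpy-5, whose loss shortens the worm, and rol-6, whose mutants roll. Their summed level was 377.9 and 465.8 TPM in the DEET and DMSO libraries of batch 4, against 71.12 to 157 TPM in the other 6. Of the 20, 2 were called higher and 0 lower, against 10.1% and 19.1% of all tested genes. The 2 were dpy-7 (1.99-fold, adjusted p = 0.0323 in edgeR) and sqt-3 (2.53-fold, adjusted p = 0.00317 in edgeR). The median log2 fold change of the 20 was 1.43. The genes dpy-5 and dpy-13 had folds of 7.67 and 7.20 that were not called. With DEET, 0 of the 20 were called and 9 had an unadjusted p under 0.05 in edgeR, against 3.39% of all tested genes. Of the 20, 2 lay above 0, with a median log2 fold change of -0.22 against 0.0 over all genes.

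Genes for processing collagen had a median close to that of all genes. Among 14 of them the median log2 fold change was 0.05, with 1 called higher and 3 lower, against 10.1% and 19.1% of all tested genes. The higher one, phy-2, encodes a subunit of the prolyl hydroxylase that modifies collagen, and it had 73.7 and 73.2 TPM in the DEET and DMSO libraries of batch 4, against 25.5 to 33.3 TPM in the other 6 (2.52-fold, adjusted p = 0.00317 in edgeR). The lower ones were pdi-1, which encodes a disulphide isomerase, bli-4, which encodes a protease that trims procollagen, and tmem-131, which encodes a factor for collagen secretion, with log2 fold changes of -0.47, -0.23 and -0.59.

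Of 24 tested genes of moulting and the apical matrix, 4 were called higher, mlt-8, qua-1, acn-1 and lpr-3, at 2.63-fold, 2.59-fold, 1.88-fold and 1.64-fold, and 2 lower. The lower ones were the transcription factor genes nhr-23, which drives the moulting cycle, and myrf-1, with log2 fold changes of -0.62 and -0.51. Among 28 tested cuticlin genes, which encode non-collagen cuticle proteins, 3 were called higher, led by cut-2 at 6.19-fold, and 0 lower. Among 16 genes of BMP signalling and epidermal control, 1 was called, sma-2, at 1.83-fold higher. Beside these counts stand 10.1% of all tested genes called higher in batch 4 and 19.1% called lower. With DEET, 0 genes of these lists were called. At an unadjusted p under 0.05 in edgeR were 1 of 14 processing, 5 of 24 moulting, 1 of 28 cuticlin and 1 of 16 control genes. The share over all tested genes was 3.39%.

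**Figure D5:**
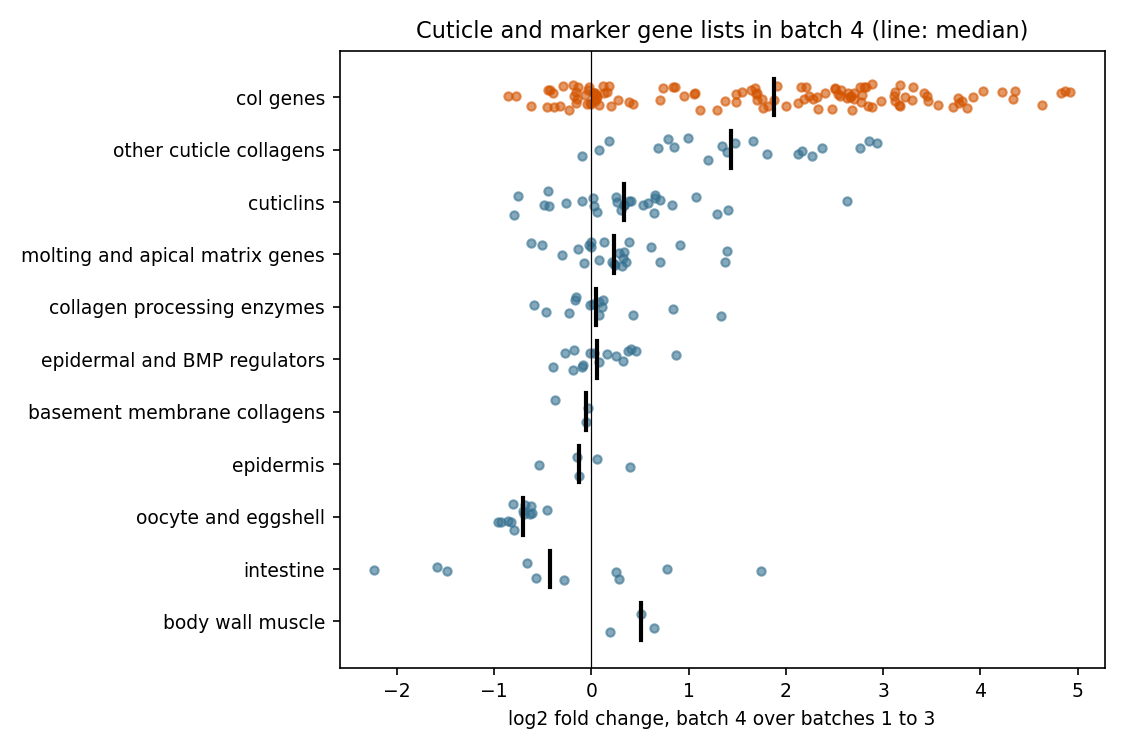
Fitted log2 fold change, batch 4 over batches 1 to 3, of each tested gene (points) in the col genes (orange) and in other lists (blue), with a black line at the median of each list. The medians are 1.88 for the col genes, 1.43 for the other cuticle collagens and -0.70 for the oocyte genes.

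Markers of other tissues also differed between the batches. Over all tested genes 10.1% were called higher in batch 4 and 19.1% lower. All 13 oocyte and eggshell genes were called lower in batch 4, and their summed level was 4686 and 4064 TPM in the DEET and DMSO libraries of batch 4, against 6855 to 7494 TPM in the other 6. Of 29 tested genes for the major sperm protein, 13 were called higher and 0 lower, and the 35 in the tables summed to 2823 and 2918 TPM in batch 4, against 1045 to 1893 TPM. Of 10 intestinal genes 3 were called higher and 5 lower, and of 3 muscle genes 0 were called, with 1 at an unadjusted p under 0.05 in edgeR. Of 5 epidermis genes 0 were called higher and 1 lower, lin-26, and their sum was 108.9 and 104.5 TPM in the DEET and DMSO libraries of batch 4, against 129.3 to 137.6 TPM in the other 6. Of 3 basement membrane collagens 0 were called higher and 1 lower, cle-1. The part of these markers in the collagen result was not tested. With ribosomal RNA genes left out, the batch 4 fit called 35 members higher and 3 lower, against 1591 and 3046 of all genes. The median log2 fold change of the members was then 1.87. This fit only drops the ribosomal rows before scaling, so it cannot show what part the higher ribosomal share had. That part was not tested. Since batch 4 is 1 batch, whatever else set its worms or libraries apart cannot be told apart from the collagen difference.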

How the data were processed

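RNA was measured by sequencing of polyadenylated RNA from 8 samples of whole worms, with paired reads of 38 nucleotides and the Kapa mRNA HyperPrep kit, per the labels' protocols. The submitters' processing notes name Salmon, DESeq2 and the build WBcel235. Versions and settings are not stated in the sources used here. Both tables were used as deposited: the deposited count table holds whole-number counts per gene that are not normalized, and the deposited TPM table holds TPM for the same genes. Salmon divides reads between similar transcripts with a model, which leaves the split among close copies uncertain.

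Of 46244 identifiers, 46182 were matched to 1 gene of Ensembl release 115 (symbols from RefSeq where it gave none), 3 to more than 1 and 59 to none. Positions are 1-based, from that annotation. Counts were tested in R 4.3.3 with edgeR 4.0.16 (quasi-likelihood, TMM, default expression filter, robust dispersion), two-sided, with Benjamini-Hochberg adjustment over 15496 genes and a threshold of 0.05. The DEET fit had the batch as block; the labels mark it as such, and in deviations from the group means the correlation of libraries of one number was 0.429, 0.706, 0.558 and 0.896 in batches 1 to 4. For batch 4, counts were summed per batch, 1 sum against 3. No libraries agreed within sampling noise. The scripts were tested on simulated data. Log2 ratios within a batch come from log2 CPM (prior count 2). Alternatives used DESeq2 1.42.0, limma 3.58.1 on log2(TPM + 1) or log2(TPM + 0.1), other filters and scaling, and left out each batch.

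Members, lists and tests were chosen with earlier results of these data known. Named members were col-121, col-19, the 10 with the highest TPM, for DEET the 5 with the smallest p in each direction and at least 50 counts, and for batch 4 the 10 called members of largest change in each direction, filled to 8 by p. Others were named after their values were seen, as neighbours, as members with a known role or as an extreme of a count. Sequences were not analysed here.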

Additional observations from a re-analysis of the deposited data

Results flagged for a closer look

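Among the 37 named col genes, 74 groups of 4 libraries were checked for a library far from the other 3, by the gap to the nearest library as a share of the whole range. In 28 groups, of 16 members, the share was above Dixon's critical value for 4 samples, which chance exceeds in about 1 group in 20. In 27 of the 28 the library apart was that of batch 4. Groups of different genes share these libraries, so they are not independent. Many named members were also picked for their difference in batch 4, a choice that favours a batch 4 library apart. The number of such groups therefore cannot be set against the chance rate.

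With both treatments apart, the shares in the DEET and DMSO libraries were 0.971 and 0.959 for col-169, 0.969 and 0.945 for col-126, 0.967 and 0.923 for col-41, and 0.960 and 0.941 for col-90. They were 0.955 and 0.933 for col-145, 0.948 and 0.935 for col-167, 0.937 and 0.932 for col-180, and 0.914 and 0.911 for col-117. They were 0.907 and 0.947 for col-170, 0.897 and 0.883 for col-154, 0.863 and 0.891 for col-156, and 0.856 and 0.865 for col-17. In all of these the batch 4 library was the high one.

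With 1 treatment apart, the share was 0.837 for col-91 in the DEET libraries and 0.833 for col-12 in the DMSO libraries, both with batch 4 high. For col-135 it was 0.894 in the DEET libraries, with batch 4 low. For col-93 it was 0.830 in the DEET libraries, with batch 1 high.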

How the results depend on the processing

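For DEET, every alternative called 0 col genes higher and 0 lower, except that with no filter on low counts 1, col-17, was called lower. Without the replicate block the counts were 0 and 0 as well, and each batch left out in turn gave 0 and 0. With a batch left out, the DEET log2 fold change of col-121 ran from -0.13 to 0.48 and that of col-19 from -0.07 to 0.06.

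For batch 4, 37 members were higher and 3 lower, against 1565 and 2967 of all genes. The counts became 86 and 10 (all genes 5642 and 4613) in the fit to libraries with the replicate block. With treatment and a batch 4 term they were 78 and 6 (4329 and 4024), and with DESeq2 on the batch sums 61 and 7 (1976 and 3495). With DESeq2 size factors they were 30 and 3 (1957 and 3167), and 28 of the 37 stayed called. With no filter they were 27 and 4 (2282 and 3415), and 21 of the 37 stayed called. Leaving out a batch gave 14 to 83 members higher and 1 to 4 lower, against 298 to 3060 of all genes higher and 1530 to 3150 lower. Fits to libraries take the 2 libraries of a batch as separate. With limma on log2(TPM + 1) 35 members were higher and 0 lower, against 1281 and 1969 of all genes. At an unadjusted p under 0.05 limma then had 79 members and 6907 genes. On log2(TPM + 0.1) limma called 0 and 0 members, and 0 and 0 genes, with 70 members and 6094 genes at an unadjusted p under 0.05. The cause was not tested. Without batch 2 the share of tested members called higher, 14%, was close to the 13% of all genes. The 37 stayed above 0 and the 3 below 0 in every alternative, and the median ran from 1.37 to 2.43. The log2 fold change of col-121 turned to -0.02 with DESeq2 on the sums, -0.02 with DESeq2 size factors, -0.01 with no filter, and ran from -0.22 to 0.16 with a batch left out. Each value of 1 named member in 1 alternative fit was then counted, so a member counts more than once. Of these values 192 kept the direction and the call. Another 46 lost and 18 gained a call with the same direction, and 4 changed direction. At 45.1 counts on average, col-121 is too shallow for a change of its size to be read.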
